A study of Mus musculus with 12 samples.

Results

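Pdzd3, Meig1, Mycbpap, Uchl1 and Polr1e are 5 genes with higher signal in mouse hearts whose cardiomyocytes lack the glucocorticoid receptor, and most of them are better known from testis, brain or epithelium than from heart. They were chosen by these measured values, the knockout and control signals, and were called in the 2-month hearts, so the 2-month differences are described here without a test. The choice names no age, so the 1-month values may be among those it used; for 1 month the p-values of the fit are printed, and no support is drawn from them. They are 5 of the 21913 genes measured, and their current symbols label 6 of 41174 probes, with no probe added through an older symbol. Uchl1 has 2 probes and the other 4 genes have 1 each. Total RNA came from whole hearts of male C57BL/6 mice, with 3 hearts, each on an array of its own, in all 4 groups. The knockouts (cardioGRKO) carried a floxed glucocorticoid receptor allele (GRflox) and Cre recombinase under the cardiomyocyte promoter αMHC, and were 1 or 2 months old. Their controls were Cre-negative GRflox littermates of the same ages, so the floxed allele is shared by all 4 groups and no group carried Cre alone. A whole heart also holds fibroblasts, vessel and nerve cells in which αMHC-Cre is not active, and in such bulk RNA more cells of a type and more RNA per cell cannot be told apart.

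The glucocorticoid receptor is a hormone-activated transcription factor that raises some genes and lowers others, directly at DNA elements or through other factors. Pdzd3 encodes a PDZ-domain scaffold of the NHERF family, which tethers transporters and guanylyl cyclase C beneath the apical membrane of gut and kidney epithelium. Meig1 encodes a small protein of developing sperm that works at the manchette, the microtubule sleeve that shapes the sperm head and tail. Mycbpap encodes a partner of the MYC-binding protein Mycbp and is abundant in testis. Uchl1 encodes a ubiquitin C-terminal hydrolase that is one of the most abundant proteins of neurons and is also made in testis. Polr1e encodes a subunit of RNA polymerase I, the enzyme that transcribes ribosomal RNA in every cell type.

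The probes lie on mouse build mm7 as the array's annotation gives them. The Pdzd3 probe is at chr9:44181904-44181963 on the minus strand, the Meig1 probe at chr2:3326328-3326387 on the minus strand and the Mycbpap probe at chr11:94610415-94610474 on the minus strand. The Polr1e probe is at chr4:45045185-45045244 on the plus strand. The brighter Uchl1 probe is at chr5:66042692-66042752 on the plus strand and contains the letters AATAAA, the usual polyadenylation signal. The other Uchl1 probe has 60 bases but its genomic coordinates, chr5:66038170-66039261, span 1092 bases, so it crosses at least 1 intron and reads spliced RNA. It is shown because only the brighter of the 2 Uchl1 probes separated the genotypes in the younger hearts:
Uchl1 exon-spanning probe: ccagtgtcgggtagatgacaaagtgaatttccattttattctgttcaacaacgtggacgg

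The bases just before the transcription start are shown for 4 of the genes, to set the motifs of their promoters beside each other. Each run is the last 120 bases before a RefSeq start in build GRCm38.p6, written 5′ to 3′ on the gene's strand. Capitals mark the only matches found there to 8 short motifs that transcription factors are known to bind. The stretches lie at chr2:3422649-3422768 (Meig1, the outermost of its 3 listed starts, minus strand), chr11:94521503-94521622 (Mycbpap, minus strand), chr9:44251465-44251584 (Pdzd3, minus strand) and chr4:45018489-45018608 (Polr1e, plus strand):
Meig1: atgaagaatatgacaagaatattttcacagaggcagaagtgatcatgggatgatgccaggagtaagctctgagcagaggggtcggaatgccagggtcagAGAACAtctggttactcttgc
Mycbpap: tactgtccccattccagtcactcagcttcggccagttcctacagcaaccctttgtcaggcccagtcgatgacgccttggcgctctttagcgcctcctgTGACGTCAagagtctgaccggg
Pdzd3: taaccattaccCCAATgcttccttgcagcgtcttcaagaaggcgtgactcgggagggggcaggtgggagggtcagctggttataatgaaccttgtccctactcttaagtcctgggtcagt
Polr1e: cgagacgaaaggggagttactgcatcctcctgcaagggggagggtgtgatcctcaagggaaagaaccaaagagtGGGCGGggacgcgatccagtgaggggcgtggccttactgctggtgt

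Mycbpap carried the palindromic cAMP response element TGACGTCA, starting 22 bases before its start, a motif found in 1.79% of all 32851 promoter windows of the same length, from before to just after a start. Meig1 carried AGAACA, a single arm of the glucocorticoid response element, 21 bases before its outermost start, and 19.0% of all windows hold that motif on either strand. Pdzd3 had a CCAAT box 109 bases before its start (37.4% of windows). Polr1e had the GC box GGGCGG 46 bases before its start and again just after it (35.7% of windows). The full palindromic glucocorticoid response element, the X-box bound by RFX factors and the TATA box TATAAA matched none of the 7 windows of the 5 genes. They are found in 0.0091%, 0.128% and 13.6% of all windows, and nothing is read from these absences. Uchl1 matched none of the 8 motifs. The inner starts of Meig1 had other matches: a GC box and the E-box CACGTG (7.15% of windows) at the middle start, and AGAACA and a CCAAT box at the innermost. Each motif was read on both strands, and the full element contains AGAACA. A match is a description of letters, not evidence that a factor binds.

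All 6 probes were well above background on 12 of 12 arrays, and none was saturated. Values below are levels on the log2 scale, a probe's processed signal relative to its array's 75th percentile, and levels of different probes are not compared with each other. Nr3c1, which encodes the receptor itself, checked the labels. On its brightest probe the level was 2.26 ± 0.26 (SD) in 1-month controls and 1.26 ± 0.05 in 1-month knockouts (n = 3 each). At 2 months it was 2.06 ± 0.08 against 0.92 ± 0.06 (n = 3 each), and controls and knockouts of the same age were separate. The other Nr3c1 probes differed between knockouts and controls by -0.61, -0.82 and -0.80 at 1 month. In the same order they differed by -0.85, -1.30 and -1.09 at 2 months. Which exons were floxed is not stated in the labels, and the probes may lie outside the deleted part. The arrays came from 4 slides. Slide 1 held the 1-month controls alone, and no slide held 1-month hearts of both genotypes, so at 1 month slide and genotype cannot be told apart. Slide 4, scanned on a second day, held cardioGRKO_1month replicate 1 and cardioGRKO_2month replicate 3. These 2 arrays and GRflox_2month replicate 2 stood apart, with 79.4%, 79.6% and 82.2% of probes well above background against 67.5% to 74.0% on the others.

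**Figure D1:**
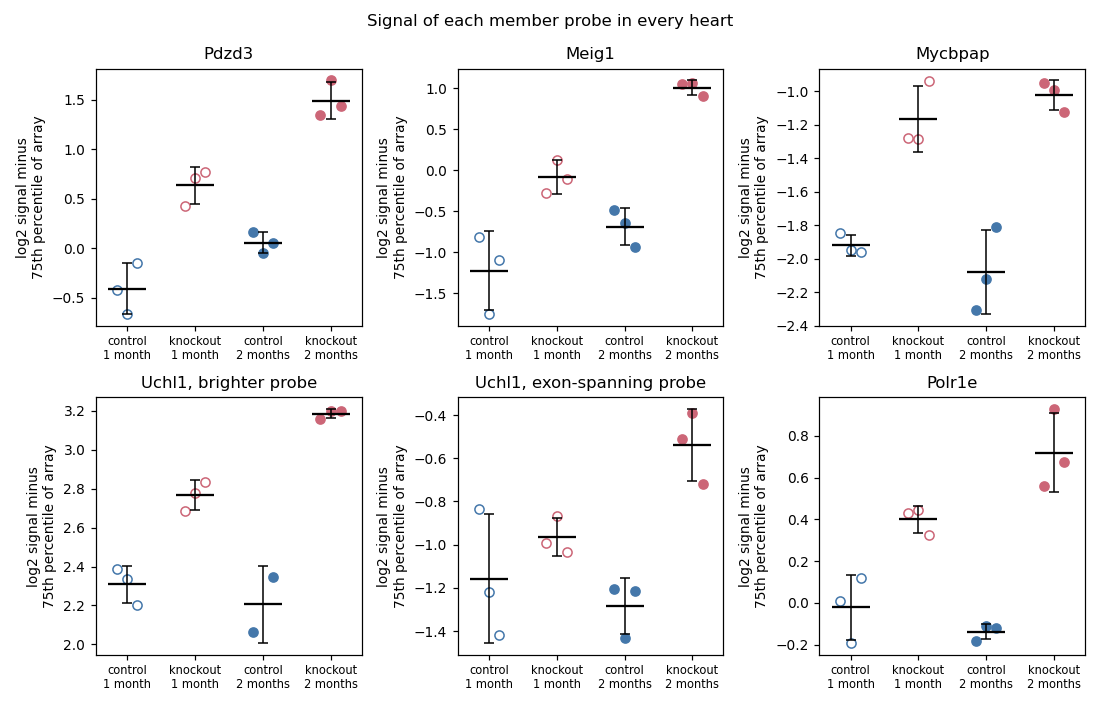
Level of each of the 6 probes (log2 signal relative to its array's 75th percentile, vertical axis) in every heart, with open circles for 1 month and filled circles for 2 months, blue for controls and red for knockouts; bars are the mean and SD. For Pdzd3, Meig1, Mycbpap, the brighter Uchl1 probe and Polr1e every knockout point lies above every control point across both ages, while the exon-spanning Uchl1 probe overlaps at 1 month.

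Pdzd3, the epithelial scaffold, was higher in the knockout hearts at both ages. The 1-month controls stood at -0.42, -0.66 and -0.15 and the 1-month knockouts at 0.42, 0.71 and 0.76. The 2-month controls stood at 0.16, -0.05 and 0.05 and the 2-month knockouts at 1.34, 1.70 and 1.43. No knockout heart reached down to a control, and the 4 groups did not overlap at all: 1-month controls were lowest, then 2-month controls, 1-month knockouts and 2-month knockouts. The difference between knockouts and controls was 1.43 at 2 months, a 2.70-fold higher signal. At 1 month it was 1.04 (SE 0.16, 2.06-fold, 95% interval 0.69 to 1.40, limma adjusted p = 0.137), which did not pass the 0.05 threshold. With an intensity trend and robust moderation of the variances it did, at limma adjusted p = 0.0234, while the other alternatives reached up to 0.944.

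Meig1, the spermatid protein, was clearly separated between genotypes at 2 months. Its levels were -0.82, -1.76 and -1.10 in the 1-month controls and -0.28, 0.13 and -0.10 in the 1-month knockouts. At 2 months they were -0.48, -0.65 and -0.93 in the controls and 1.06, 1.06 and 0.90 in the knockouts. The controls of both ages overlapped with each other, whereas 1-month and 2-month knockouts were separate, and every knockout was above every control. The 2-month knockout signal was 3.23-fold that of the controls, a difference of 1.69. At 1 month the difference was 1.14 (SE 0.23, 2.21-fold, 95% interval 0.63 to 1.65, limma adjusted p = 0.233) and did not pass; the wide spread of the 1-month controls (SD 0.48) stood out from the SD of 0.09 to 0.23 in the other groups.

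Mycbpap, the partner of Mycbp, had spots between 5.18 and 14.0 times their local background. The 1-month controls were at -1.85, -1.95 and -1.96 and the knockouts at -1.28, -1.28 and -0.94. The 2-month controls were at -2.31, -2.12 and -1.81 and the knockouts at -0.95, -0.99 and -1.12. Age made little difference here: the controls of both ages overlapped and so did the knockouts of both ages, yet 0.53 separated the lowest knockout from the highest control. The difference was 1.06 at 2 months (2.08-fold) and 0.75 at 1 month (SE 0.14, 1.69-fold, 95% interval 0.43 to 1.07, limma adjusted p = 0.201). After normexp background correction with 75th percentile scaling the 2-month difference of Mycbpap was smaller, 0.58. After normexp with quantile scaling it was 0.72, and with quantile scaling but no normexp it was 1.06.

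Uchl1, the neuronal hydrolase, was measured by 2 probes, of which only the brighter separated the genotypes at 1 month. On the brighter probe the 1-month controls were at 2.39, 2.33 and 2.20 and the knockouts at 2.68, 2.78 and 2.84. The 2-month controls were at 2.06 and 2.35, the spot of the remaining control having been marked non-uniform and left out (it would read 2.26), and the 2-month knockouts were at 3.16, 3.20 and 3.20. The groups did not overlap within either age, and the 2-month knockouts were nearly identical to each other. The difference was 0.98 at 2 months (1.97-fold, 2 controls) and 0.46 at 1 month (SE 0.10, 1.37-fold, 95% interval 0.23 to 0.69, limma adjusted p = 0.395).

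On the exon-spanning Uchl1 probe, whose sequence is given above, the 1-month controls were at -0.83, -1.22 and -1.42 and the 1-month knockouts at -0.99, -0.87 and -1.03. These groups overlapped, with a difference of 0.19 (SE 0.16, limma adjusted p = 0.874 over all probes). At 2 months the controls were at -1.20, -1.43 and -1.22 and the knockouts at -0.51, -0.39 and -0.72, separate groups with a difference of 0.75 (1.68-fold). Both Uchl1 probes were thus higher in the 2-month knockouts, and at 1 month only the brighter probe separated the genotypes; the difference between the probes was not tested.

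Polr1e, the RNA polymerase I subunit, was higher in the knockouts by the smallest mean difference among the representing probes, although under some alternatives Uchl1 or Mycbpap differed less. Its levels were 0.01, -0.19 and 0.12 in the 1-month controls and 0.43, 0.44 and 0.32 in the 1-month knockouts. At 2 months they were -0.18, -0.11 and -0.12 in the controls and 0.56, 0.93 and 0.67 in the knockouts. The controls of both ages overlapped, and the knockouts of the 2 ages did not. The difference was 0.86 at 2 months (1.81-fold) and 0.42 at 1 month (SE 0.12, 1.34-fold, 95% interval 0.16 to 0.68, limma adjusted p = 0.589).

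Over the 5 genes, 0 passed at 1 month with limma's adjusted p, against 0.0137% of all 21913 genes that passed with a higher signal and 0.0274% that passed in either direction. At an unadjusted p under 0.05 all 5 were higher, against 2.97% of all genes. In all 5 the 1-month knockouts lay above the 1-month controls in every heart, as they did in 9.03% of all genes. Since the genes were chosen for a rise in knockout hearts of no stated age, nothing is read from these counts. At 2 months all 5 had passed by choice, beside 0.0776% of all genes called higher, 0.137% called in either direction and 6.15% higher with no overlap, and nothing is read from that count either. Leaving out any 1 of the 12 arrays left 0 to 3 of the 5 called: Pdzd3 was called in 9 of these 12 fits, Uchl1 in 3, Meig1 and Mycbpap in 2 each and Polr1e in 1. The 2-month differences moved less, from 1.33 to 1.51 for Pdzd3, 1.57 to 1.79 for Meig1, 0.94 to 1.19 for Mycbpap, 0.84 to 1.12 for Uchl1 and 0.75 to 0.94 for Polr1e. None of the 5 was called without GRflox_2month replicate 2 or cardioGRKO_2month replicate 2.

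For each of the 5 genes, on the probe that represents it, the lowest of the 6 knockout hearts was above the highest control heart measured, 1- and 2-month hearts together. The margin ran from 0.21 for Meig1 and Polr1e to 0.53 for Mycbpap, and 0.73% of all genes showed this order, a share from which nothing is read because the order uses the values that chose the genes. The difference between genotypes was larger at 2 months than at 1 month for each gene, by 0.39 for Pdzd3, 0.55 for Meig1, 0.30 for Mycbpap, 0.52 for Uchl1 and 0.44 for Polr1e; these changes were not tested. Mycbpap turned with normexp and the 75th percentile, to 0.81 at 1 month and 0.58 at 2 months, and no other alternative turned this order for any of the 5. The genes were called in the 2-month hearts, which favours a larger 2-month difference, so nothing is read from this order. From 1 to 2 months the control mean moved by 0.47 for Pdzd3 and 0.54 for Meig1, and by -0.16 for Mycbpap, -0.10 for Uchl1 and -0.12 for Polr1e. The knockout mean moved by 0.86, 1.09, 0.14, 0.42 and 0.32 in the same order. On slide 3, which held 1 control and 2 knockouts of 2 months, the genotype difference was 1.47 for Pdzd3, 1.99 for Meig1, 0.84 for Mycbpap, 0.83 for Uchl1 and 0.86 for Polr1e. With slide as a fixed block the 2-month values were 1.54, 1.91, 0.98, 0.96 and 0.83, and 0 of the 5 were called. Without the second scan day they were 1.46, 1.75, 1.11, 0.98 and 0.88, and again 0 were called.

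**Figure D2:**
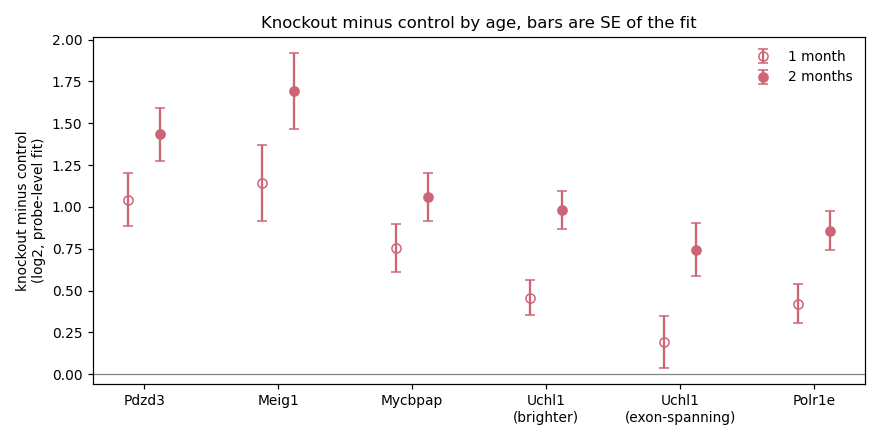
Difference in level between knockout and control hearts (log2, vertical axis) for each probe at 1 month (open) and 2 months (filled); bars are SE of the fit. Each probe has its 2-month value above its 1-month value, from 0.19 against 0.75 on the exon-spanning Uchl1 probe to 1.14 against 1.69 for Meig1. The genes were called in the 2-month hearts, which favours this order.

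The other genes of the 5 pathways gave no calls: of 60 tested, 0 passed limma's adjusted threshold at either age. An unadjusted p under 0.05 was reached by 6 of the 60 at 1 month and 7 at 2 months, against 6.03% and 7.63% of all genes. Among the NHERF scaffolds and their apical partners, 0 of 12 tested genes rose and 0 fell at either age. In this list 3 of the 12 had an unadjusted limma p under 0.05, in either direction, at each age. Knockouts lay above controls without overlap in 5 of the 12 at 1 month and 2 at 2 months, against 9.03% and 6.15% of all genes. The median difference of these 12 genes was 0.46 at 1 month and -0.11 at 2 months, against 0.04 and 0.03 over all genes. The score of this list (the median over its genes of each gene's level minus its mean over the arrays) was highest on the 3 arrays that stood apart, at 0.54 on cardioGRKO_1month replicate 1, 0.40 on GRflox_2month replicate 2 and 0.96 on cardioGRKO_2month replicate 3. Without these arrays the medians were 0.23 and 0.19, so the 2-month sign turned. Slc9a3, the apical sodium-proton exchanger NHE3, came nearest: its level went from -3.99 ± 0.17 (SD) to -1.72 ± 0.55 at 2 months (n = 3 each), a difference of 2.27 (SE 0.40, limma adjusted p = 0.0964). With an intensity trend and robust variances it was called, at limma adjusted p = 0.0420. At 1 month the Slc9a3 difference was 1.51 (limma adjusted p = 0.584), and at both ages knockouts and controls were separate. The values of the next largest, at 2 months, were -0.60 for Slc34a2, -0.57 for Cftr, which was well above background on 3 of 12 arrays, and 0.53 for Slc22a12. The scaffolds closest to Pdzd3 itself, Slc9a3r1, Slc9a3r2 and Pdzk1, stood at -0.10, -0.30 and -0.13.

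Of the partners of Meig1 and other manchette proteins, 0 of 11 tested genes rose and 0 fell at either age, and the median was 0.06 at 1 month and 0.03 at 2 months. The largest values were those of dim probes, -1.80 for Spag17 and -1.06 for Spag6l, each well above background on 4 of 12 arrays, and Spag16 was at 0.38. Spef2 and Odf1 were too dim to be tested.

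Of MYC, its dimer partners and the MYC-binding proteins, 0 of 11 rose and 0 fell at either age, with medians of 0.01 and -0.01. Mycbp, to which the Mycbpap protein binds, differed by 0.13 at 1 month and 0.07 at 2 months. The largest 2-month values were -0.38 for Mycn, -0.34 for Max, 0.28 for Mycbp2 and -0.20 for Mxi1, the last a repressor that pairs with Max. Of the ubiquitin C-terminal hydrolases and ubiquitin genes, 0 of 9 rose and 0 fell at either age, with medians of -0.10 and 0.09. Bap1 was at 0.35, Uchl5 at -0.16, Rps27a at 0.15 and Ubb at 0.10 at 2 months. Uchl3, the nearest relative of Uchl1, was at 0.15 at 1 month and -0.04 at 2 months.

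Of RNA polymerase I subunits and their initiation factors, 0 of 17 tested genes rose and 0 fell at either age, beside the values above for Polr1e. At 2 months 9 were above 0 and 8 below, with a median of 0.02. The largest values were -0.32 for Taf1b and 0.27 for Taf1d, both of the selectivity factor that recruits the polymerase, -0.27 for the terminator factor Ttf1 and -0.20 for Taf1c. The large subunits Polr1a and Polr1b, which form the catalytic centre, were at 0.02 and 0.06. Polr1f, Polr1g and Polr1h had no probe under those names.

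**Figure D3:**
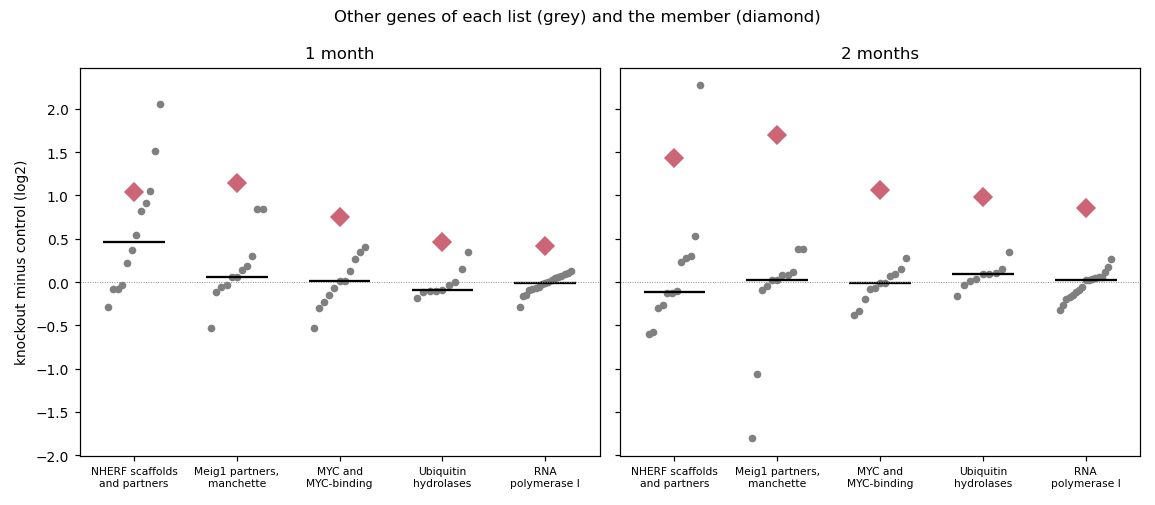
Difference between knockout and control hearts (log2, vertical axis) at 1 month (left) and 2 months (right) for the other genes of each pathway list (grey points, black line at their median) and for the member gene of that list (red diamond). At 2 months each diamond lies above all grey points of its list except in the NHERF list, where Slc9a3 at 2.27 is above Pdzd3 at 1.43. The member genes were chosen for their rise, so nothing is read from their place among the other genes.

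Markers of other cells that express these genes were read on the same arrays. Over 10 marker lists with 110 genes tested, 0 passed limma's adjusted threshold at either age. An unadjusted p under 0.05 was reached by 6 at 1 month and 3 at 2 months, against 6.03% and 7.63% of all genes. Of the 6 at 1 month, 4 were skeletal muscle markers. The hearts carried their own tissue: all 10 cardiomyocyte markers were well above background on all 12 arrays, Myl2, Myh6 and Tnnt2 brightest. The cardiomyocyte score ran from -0.06 to 0.15 in 1-month controls and from -0.23 to -0.07 in 1-month knockouts, without overlap and with 9 of 10 genes below 0, whereas at 2 months it overlapped (-0.03 to 0.24 and -0.05 to 0.30). The male germ cell score, relevant to Meig1, Mycbpap and Uchl1, ran from -0.59 to -0.44 in 1-month controls and from -0.33 to 1.04 in 1-month knockouts. At 2 months it ran from -0.60 to 0.91 in controls and from -0.29 to 1.52 in knockouts. Its highest values were on the 3 arrays that stood apart, and 5 of 16 markers (Ddx4, Tnp1, Prm1, Prm2 and Akap4) were well above background on all arrays while Tex14 was on none. All 10 male germ cell genes tested were above 0 at 1 month (median 0.60) and 8 at 2 months (median 0.28). Without the 3 arrays that stood apart these medians were 0.06 and 0.07. The neuron score, relevant to Uchl1, ran from -0.89 to 0.08 in 1-month controls, -0.34 to 0.48 in 1-month knockouts, -0.27 to 0.21 in 2-month controls and 0.10 to 0.68 in 2-month knockouts. For neurons 11 of 20 markers were well above background on all arrays, with Ddc, Sncg and Tubb3 brightest; at 2 months their differences were -0.19, -0.18 and 0.41. Of the 18 neuron genes tested, 15 were above 0 at 1 month (median 0.44) and 12 at 2 months (median 0.22), and without the 3 arrays that stood apart the medians were 0.08 and 0.17. All 9 Schwann cell genes tested were above 0 at 1 month (median 0.22) and 7 at 2 months (median 0.17), and their scores overlapped at both ages. The epithelium score, relevant to Pdzd3, ran from -1.01 to 0.40 in 2-month controls and from -0.64 to -0.42 in 2-month knockouts. At 1 month the epithelium score ran from -0.87 to 1.28 and from -0.26 to 0.90. Adipocyte markers had the largest medians of the 10 lists, 1.34 at 1 month and 0.67 at 2 months. Their score was lowest on GRflox_1month replicate 3 (-3.52) and GRflox_2month replicate 2 (-3.12), and ran from 0.14 to 1.44 on the other controls and from -0.57 to 1.63 on the knockouts. Without the 3 arrays that stood apart the adipocyte medians were 1.09 and -0.79. GRflox_1month replicate 3 remained among the 1-month controls in this reading. The other 1-month controls scored 1.44 and 1.39, within the 0.86 to 1.63 of the 1-month knockouts. The part of these markers in the members' differences was not tested. Without GRflox_2month replicate 2 and the second scan day together, the 2-month differences were 1.41 for Pdzd3, 1.77 for Meig1, 1.09 for Mycbpap, 0.83 for Uchl1 and 0.89 for Polr1e.

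Among 15979 named genes with a value on every array, the likeness of each profile to a member was taken as Pearson's r over the 12 arrays. These points share the same 4 groups and slides, so r is a description. Pdzd3 was most like Meig1 (r = 0.97), then Hbegf (0.97) and Cdc14b (0.96). Meig1 was most like Pdzd3, then Slc9a2 (0.96) and Cdc14b (0.95). Cdc14b, a phosphatase, was among the closest for both, and its difference between genotypes, a description since likeness to the members chose it, was 0.44 at 1 month and 0.67 at 2 months. Mycbpap was most like Rgs6 (0.94), Enkur (0.92) and Eid1 (0.92). Rgs6, a regulator of G-protein signalling, stood 0.51 higher in knockouts at 1 month and 0.63 higher at 2 months.

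Uchl1, over the 11 arrays with its value, was most like Triqk (0.96) and Mybpc2 (0.96). Mybpc2, the fast-type myosin-binding protein C, stood 0.43 higher at 1 month and 1.10 higher at 2 months. Polr1e was most like Lgals1 (0.95), Zfp74 (0.93) and Bag2 (0.93), whose 2-month differences were 0.56, 0.37 and 0.44. Between the members, r was 0.83 for Pdzd3 and Mycbpap, 0.91 for Pdzd3 and Polr1e, 0.78 for Meig1 and Mycbpap, and 0.94 for Uchl1 and Mycbpap. Uchl1 had 0.93 with Pdzd3, 0.91 with Meig1 and 0.92 with Polr1e, and Polr1e had 0.89 with Meig1 and with Mycbpap. The members were chosen for a shared rise, which favours a high r, so nothing is read from these values. The differences of the genes most like a member are likewise descriptions, since likeness chose those genes.

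The members lie on 5 chromosomes, and the nearest measured gene on each side was read beside each member. Of these 10 neighbours (Cbl and Nlrx1 beside Pdzd3, Acbd7 and Dclre1c beside Meig1, Epn3 and Rsad1 beside Mycbpap, Apbb2 and Limch1 beside Uchl1, Zbtb5 and Fbxo10 beside Polr1e; order of GRCm38.p6), 0 passed at either age by limma's adjusted p. Their differences ran from -0.20 to 0.14 at 1 month and from -0.50 (Acbd7) to 0.64 (Epn3) at 2 months. At 2 months Fbxo10 (0.12) was higher in knockouts without overlap, as were 6.15% of all genes. Dclre1c (-0.46) was lower without overlap, and the other neighbours overlapped. The members were chosen for their rise, so their sizes are not set against those of the neighbours. Whether a rise was shared by a member's surroundings was not tested.

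**Figure D4:**
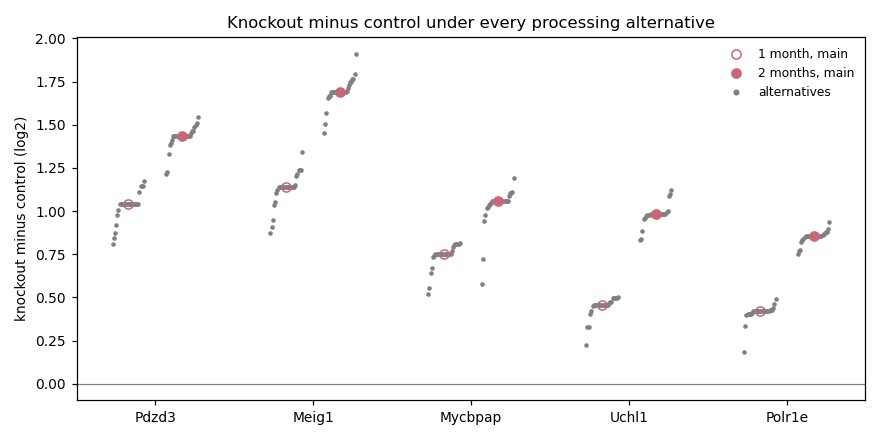
Difference between knockout and control hearts (log2, vertical axis) of each gene at 1 month (open red circle) and 2 months (filled red circle) as reported, with every processing alternative as a grey point. All points lie above 0, the direction for which the genes were chosen. At 2 months they run from 0.58 to 1.19 for Mycbpap and from 1.46 to 1.91 for Meig1.

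Every alternative kept the direction of the 5 genes at each age it gave. The genes were chosen for this direction, and several alternatives cannot change the difference. Centring arrays on their median lowered the 1-month difference of Uchl1 to 0.22 and that of Polr1e to 0.18. It also moved the median of all genes at 1 month from 0.04 to -0.20. Relative to that median, Uchl1 was at 0.42 and Polr1e at 0.38 under both scalings. These scalings each shift all genes of an array alike, so this sameness was fixed in advance. After normexp with the 75th percentile the median of all genes was 0.17, and relative to it Uchl1 was at 0.16 and Polr1e at 0.24 at 1 month.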

How the data were processed

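Agilent whole mouse genome arrays, 1 colour (Cy3), measured total RNA of 12 hearts. Agilent Feature Extraction 9.5 is the tool that the submitters' processing notes name. Deposited scanner files give, per spot, a processed intensity, and the authors' value table holds the same numbers (largest relative difference 0). Of 45018 features per array, 1639 controls and 3 to 310 non-uniform spots were left out. The 75th percentile of an array lay between 885.8 and 1549 intensity units.

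From the deposited intensities, log2 values relative to each array's 75th percentile were computed and fitted with limma 3.58.1 in R 4.3.3 (lmFit, eBayes), with 1 mean per group and all 12 arrays. Probes well above background on at least 3 arrays entered (32489), 1 per gene, the brightest. Two-sided p-values were adjusted by Benjamini-Hochberg over 21913 genes, with a threshold of 0.05. Probes were named through the RefSeq accession (22951), a current symbol (6659), another accession (47) or a synonym (3077), and 8440 kept the file's name. Promoters are RefSeq's (GRCm38.p6). The fit was tested on simulated data.

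The members and the gene lists were chosen with earlier results of these data known. Text names the members, Nr3c1, the 3 genes most like each member, up to 4 genes per pathway list by size at 2 months, and up to 3 bright markers; closest relatives and neighbours were named besides. Some genes that this rule names are not reported here. The replicate numbers were not taken to pair the hearts. With 3 arrays per group, their number limits the precision.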

Additional observations from a re-analysis of the deposited data

How the results depend on the processing

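The 5 genes kept their direction under 28 alternatives at 1 month and 29 at 2 months. For Uchl1 these were 26 and 27, since fits that need a value on every array leave it out. The genes were chosen for this direction, and several alternatives cannot change the difference. Among these are the deposited value table, an intensity trend with robust variances and, at 2 months, leaving out a 1-month array. The calls of the 5 genes did not all hold. Of the 5 genes called at 2 months, 0 were called with median centring, normexp with the 75th percentile, slide as a fixed block, only the 6 arrays compared, without the second scan day, and without GRflox_2month replicate 2 and that day together (chosen after seeing the data). With no filter on dim probes 1 was called, and without 1 array at a time 0 to 3 were. At 1 month 1 of the 5 (Pdzd3) was called with an intensity trend and robust variances, against 0, and 1 pathway gene (Slc9a3) was called at 2 months, against 0. Over all genes the calls went from 6 at 1 month and 30 at 2 months to 18 and 72 with trend and robust variances, 11 and 45 with probes well above background on all arrays, 11 and 39 with normexp and quantile scaling, 0 and 3 with median centring, 1 and 1 with normexp and the 75th percentile, 0 and 0 with only the 6 arrays, 0 and 8 without the second scan day, 5 and 15 with no filter, and 0 to 6 and 11 to 23 without 1 array at a time. A fixed slide block gave 0 at 2 months and no 1-month value, since slide 1 held the 1-month controls alone. The causes were not tested. As for pairing, same-numbered hearts deviated with correlations of -0.69 to 0.49 (5 of 18 pairs above 0.1). For hearts of different number they were -0.50 to 0.80 (15 of 36 pairs above 0.1). With ranges this wide the correlations cannot decide whether the hearts were paired. With a replicate block, 0 of the 5 genes were called at 2 months and 3 and 6 genes overall. All 6 probes were at least 5.18 times their local background, and the number of hearts limits what can be told.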
